A study of Mus musculus with 9 samples.

Results

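Aminoacyl-tRNA synthetases attach each amino acid to its own transfer RNA (tRNA) and so supply the ribosome with charged tRNA. The genes described here are the 36 mouse synthetase genes that were chosen by symbol, 20 of the cytoplasmic set and 16 of the mitochondrial set, which carries names ending in 2. All 36 were found among the 13499 genes of the expression table. The levels came from RNA sequencing of mouse embryonic stem (ES) cells of the C57BL/6 strain, grown with leukaemia inhibitory factor (LIF) on gelatine. Cells were separated by cytometry on GFP-Myc or EYFP fluorescence into a High, a Medium and a Low Myc population, with 3 libraries of each. The labels do not give which reporter stood behind which library, and they call the replicates biological without naming separate cultures. The p-values below therefore measure the spread between these libraries.

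Cytoplasmic and mitochondrial synthetases are separate sets because mitochondria translate their own genome with their own tRNAs. In mammals both sets are encoded in the nucleus, and the glycine and lysine enzymes (Gars and Kars) serve both compartments from 1 gene each. The enzymes fall into class I and class II by the fold of their catalytic domain. Several cytoplasmic ones (Eprs, Iars, Lars, Mars, Qars, Rars, Kars and Dars) sit with the scaffold proteins Aimp1, Aimp2 and Eef1e1 in the multisynthetase complex, and Eprs joins a class I and a class II enzyme in 1 chain. Myc is a transcription factor that binds the E-box CACGTG as a dimer with Max and is known for raising genes of protein synthesis. ATF4, the factor of the amino acid response, is known to bind elements of the type TGATGNAA in promoters of synthetase genes.

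The promoter sequences are shown first because both of these motifs can be read in them. RefSeq promoters (assembly GRCm38.p6, from 250 bases before to 50 after the annotated start) were matched for 27 of the 36 genes, 13 cytoplasmic and 14 mitochondrial. Both strands were searched. CACGTG reads the same on both, so it was counted once, and TGATGNAA was also read as its reverse complement. The amino acid response motif was found in 5 of the 13 cytoplasmic promoters (38.5%) and in 0 of the 14 mitochondrial ones, against 2.08% of the 9765 promoters of genes in the table and 4.07% of all 27025 promoters of that length. The E-box was found in 4 of the 13 cytoplasmic promoters (30.8%) and in 1 of the 14 mitochondrial ones (7.14%), against 10.2% and 7.09%. The 2 motifs did not overlap in any of them. Aars held the most matches, and its 250 bases before the start carry 1 E-box and 1 amino acid response motif, both in capitals.
Aars, chr8:111033592-111033841, plus strand: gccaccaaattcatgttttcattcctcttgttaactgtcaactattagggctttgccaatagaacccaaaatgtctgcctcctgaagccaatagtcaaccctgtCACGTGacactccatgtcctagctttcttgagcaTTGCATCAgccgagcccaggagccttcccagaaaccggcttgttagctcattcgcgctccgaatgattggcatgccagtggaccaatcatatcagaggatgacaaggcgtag

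The other matches are shown in runs of 30 bases, 5′ to 3′ along the gene, with the match in capitals. The amino acid response motif lay within 30 bases of the start in each of these genes, and the second one of Aars was found at bases 10 to 17 after it.
Aars, chr8:111033840-111033869, plus strand: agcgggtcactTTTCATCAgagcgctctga
Yars, chr4:129189895-129189924, plus strand: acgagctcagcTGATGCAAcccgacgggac
Iars, chr13:49682126-49682155, plus strand: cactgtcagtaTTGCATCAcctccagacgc
Tars, chr15:11399655-11399684, minus strand: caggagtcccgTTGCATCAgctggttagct
Gars, chr6:55037960-55037989, plus strand: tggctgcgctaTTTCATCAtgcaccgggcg

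The E-box was found in 3 further cytoplasmic genes and in Ears2 of the mitochondrial set.
Iars, chr13:49682049-49682078, plus strand: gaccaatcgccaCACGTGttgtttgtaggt
Tars, chr15:11399622-11399651, minus strand: tccgcctgtggcCACGTGgcgcacgcgcag
Farsb, chr1:78488919-78488948, minus strand: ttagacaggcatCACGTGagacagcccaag
Ears2, chr7:122067048-122067077, minus strand: cgcgaaggagccCACGTGtgtgtttctagt

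**Figure D1:**
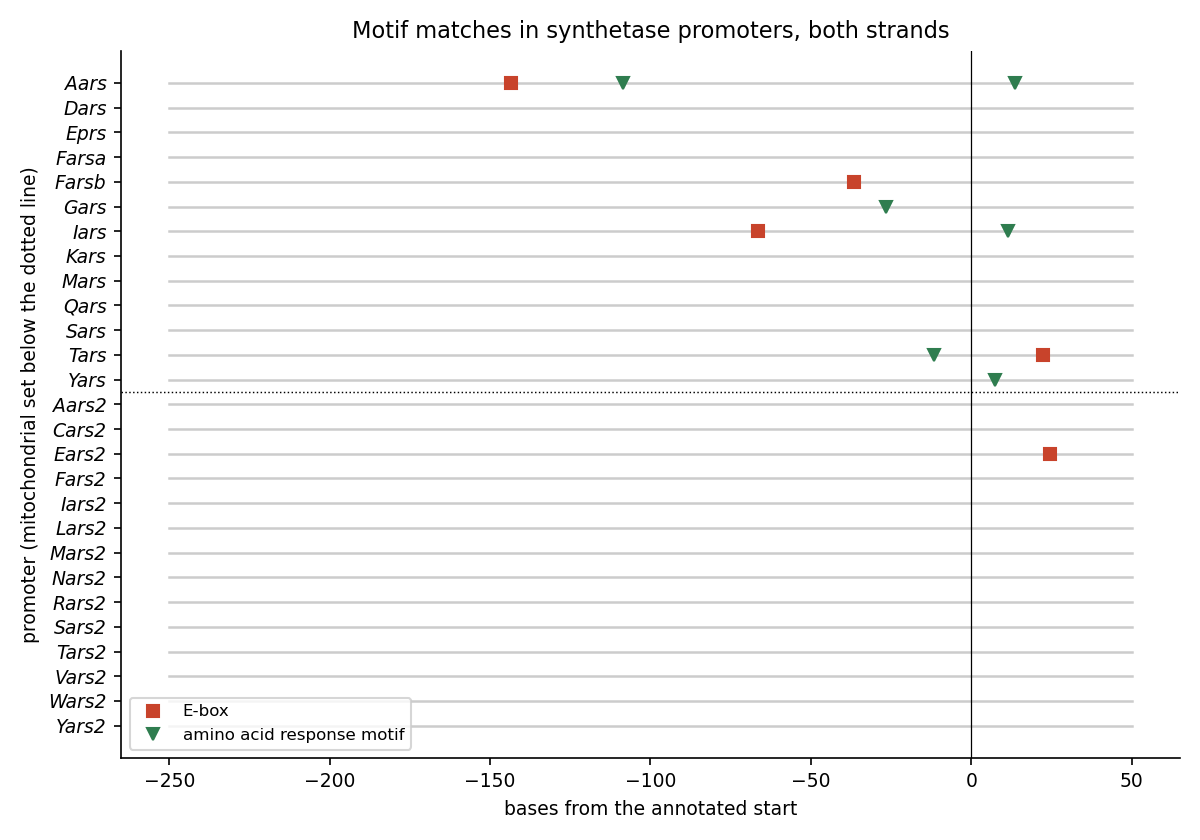
Position of each motif match (bases from the annotated start, x axis) in the 27 synthetase promoters searched, with squares for the E-box and triangles for the amino acid response motif. All 6 amino acid response matches and 4 of the 5 E-boxes lie in the cytoplasmic set, above the dotted line.

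A match describes these letters only. Of the genes with a match, Aars and Yars were called higher in High than in Low, while Gars, Tars, Farsb and Ears2 were not, and Iars was not called by the test used throughout. Called members without a match in this window were Eprs, Mars, Aars2 and Tars2. The called genes Hars and Lars lie on chromosome 18, so their promoters were not searched. The annotated starts of RefSeq and GENCODE differ for some genes, and that of Aars lies farther upstream in GENCODE. In 23 of the 27 genes the bases after the RefSeq start were also found in the gene's own GENCODE transcript.

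Values are given as signal, which is the deposited count of a gene divided by a factor for its library. The libraries hold 11114936 to 16755566 reads in genes, and signal is close to CPM, the count scaled by library size. The members had between 61 and 9558 reads per library, and counting error weighs most on the lowest mitochondrial genes. Myc itself checked the labels. Its signal averaged 26.0 ± 1.75 (SD over 3 libraries) for Low, 67.1 ± 2.54 for Medium and 106 ± 5.71 for High, a 4.08-fold difference between High and Low. All 7 ES cell markers looked for, among them Pou5f1, Sox2 and Nanog, were measured and summed to 4091 to 5635 in Low, 4614 to 5253 in Medium and 4832 to 5538 in High. Of these 7, Esrrb (log2 fold change 0.54, limma adjusted p = 0.00354) and Zfp42 (0.25, 0.032) were higher in High than in Low and 0 were lower, and Esrrb was also higher in Medium than in Low (0.51, 0.0125). The part of these markers in the synthetase differences was not tested.

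Levels between genes were compared per kilobase of the longest annotated transcript (signal per kb, mean of the 9 libraries). The cytoplasmic synthetases were abundant, with a median of 70.4 signal per kb against 6.98 over all 13418 genes with a length. Gars and Kars, the genes that serve both compartments, stood highest at 164 and 153, followed by Nars at 111. Cars and Farsa were lowest at 32.3 and 35.7. The mitochondrial set had a median of 8.11 signal per kb and spanned a wider range, from 1.57 for both Mars2 and Wars2 to 27.3 for Sars2 and 54.1 for Lars2. Apart from Lars2, every mitochondrial gene was below the lowest cytoplasmic one.

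**Figure D2:**
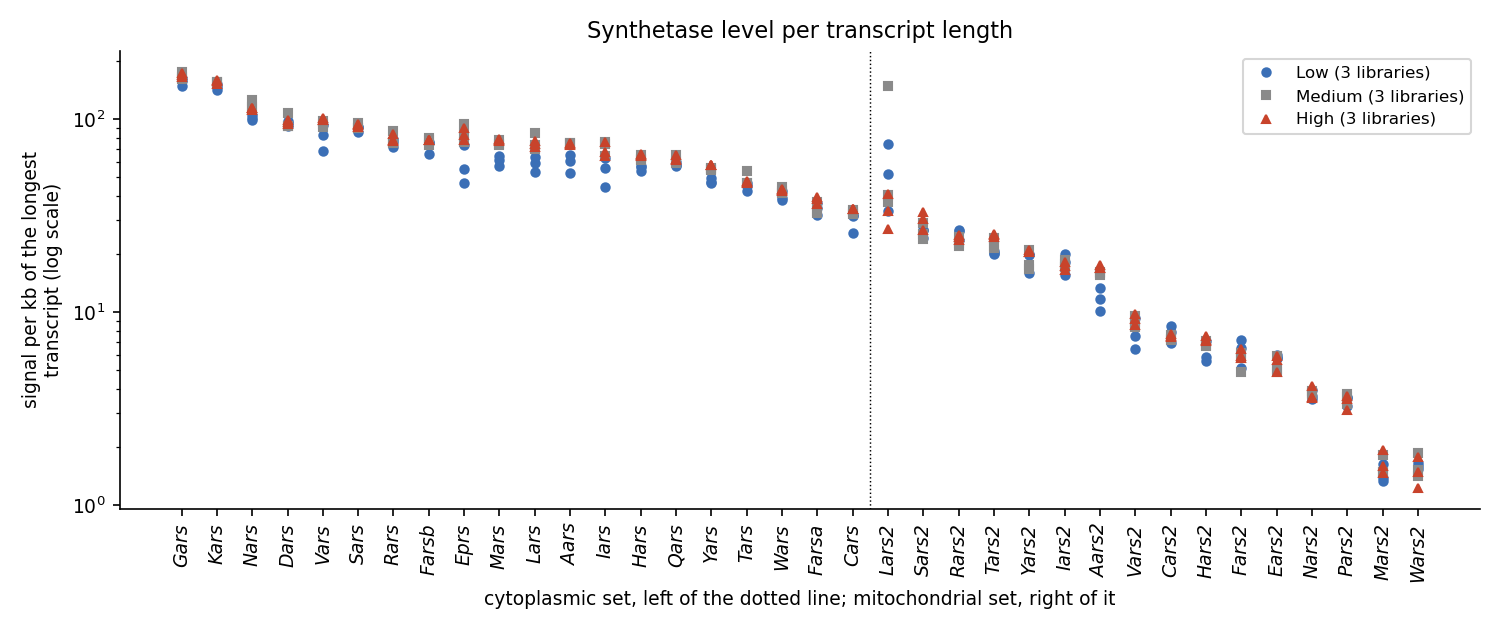
Signal per kb of the longest transcript (log scale, y axis) for each synthetase (x axis, ordered by mean within each set) in each of the 9 libraries. The cytoplasmic set lies between 32.3 and 164 on average and the mitochondrial set between 1.57 and 54.1, and Lars2 is spread farther than any other gene.

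Of the amino acids, 13 have 1 cytoplasmic and 1 mitochondrial gene in the table. In all 13 pairs the cytoplasmic gene was higher per kb, by a median of 4.27 times. The smallest ratio was 1.29 for leucine (Lars against Lars2) and the next 2.08 for threonine (Tars against Tars2). The largest was 45.4 for methionine, where Mars stood at 71.3 and Mars2 at 1.57. Asparagine (Nars against Nars2) at 29.4 and tryptophan (Wars against Wars2) at 26.6 followed. Mars2 has the longest annotated transcript of the members, 11294 bases, which lowers its value per kb. In signal not divided by length Mars averaged 218.5 and Mars2 17.8, against 304.3 for Nars and 14.3 for Nars2. These ratios rest on 1 transcript length per gene and are a description of levels.

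Comparing High with Low asked which synthetases differ between the populations with the most and the least Myc. Limma called 8 of the 36 synthetases (22.2%) at an adjusted p under 0.05, all 8 higher in High and 0 lower. Over all genes tested, 28.4% were called, 13.8% higher and 14.6% lower, so the share of synthetases called in either direction was not above that of all genes, while for the higher direction alone it was 22.2% against 13.8%. The 8 are Eprs, Lars and Mars of the multisynthetase complex, Aars, Hars and Yars outside it, and Aars2 and Tars2 of the mitochondrial set. By set, 6 of the 20 cytoplasmic genes and 2 of the 16 mitochondrial genes were called.

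The cytoplasmic estimates were small and all of 1 sign. Their log2 fold changes ran from 0.02 for Dars to 0.54 for Eprs with a median of 0.15, and all 20 were positive, against a median of 0.00 and 6748 positive values among all 13499 genes. With each column rescaled to the same total 19 of the 20 were positive (median 0.12), without Low replicate 1 also 19 (median 0.12), and after quantile normalization 15 (median 0.04). In 15 of the 20 all High libraries lay above all Low libraries. The mitochondrial set was divided, with 8 of 16 values positive, a median of 0.00 and 3 genes (Aars2, Tars2 and Yars2) without overlap of High above Low. Over both sets 18 genes were separated in this direction and 0 in the other, against 20.2% and 21.4% of all genes.

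Summed over the 20 cytoplasmic genes, signal averaged 4443 ± 196 (SD over 3 libraries) for Low, 5126 ± 205 for Medium and 5156 ± 83.5 for High. The 3 Low sums were 4583, 4219 and 4527, all below the lowest Medium sum of 4956 and the lowest High sum of 5063. The 15 mitochondrial genes other than Lars2 summed to 536.6 ± 14.9 in Low, 557.1 ± 19 in Medium and 588.3 ± 6.28 in High. The sum of all 16 gave 743.4 ± 68.1, 851.1 ± 237 and 720 ± 32.9, since Lars2 made up a large and variable part of it. In bulk libraries fewer cells that express a gene and less RNA per cell cannot be told apart.

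**Figure D3:**
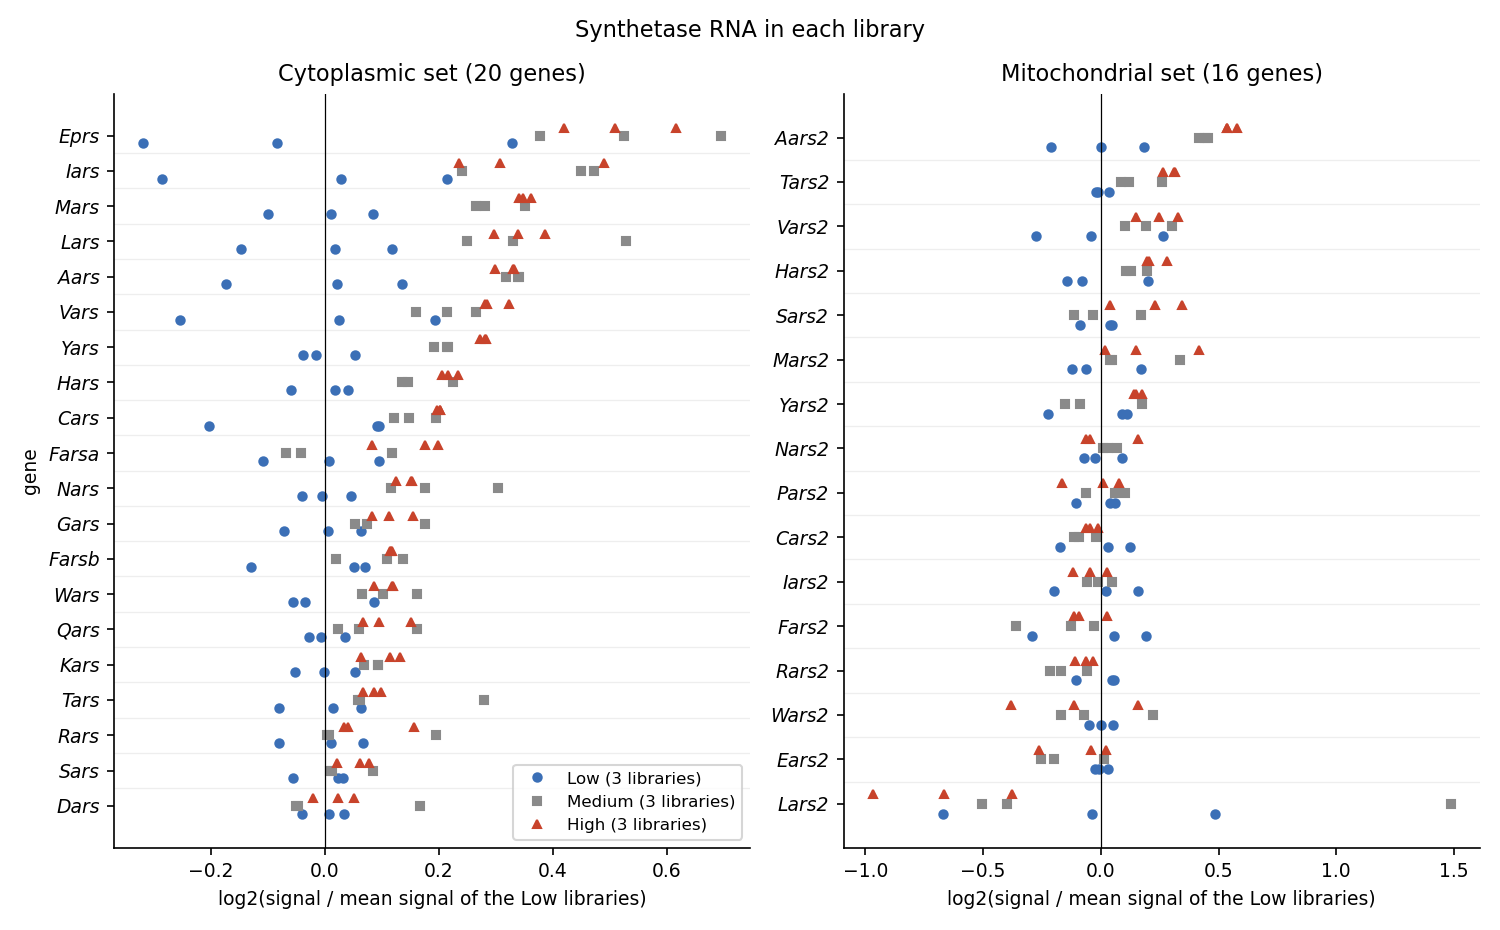
Log2 of signal over the mean of the Low libraries (x axis) for every synthetase (y axis, ordered by the High against Low estimate), 1 point per library, with the cytoplasmic set on the left and the mitochondrial set on the right (different x ranges). High and Medium points lie to the right of all Low points in Mars, Aars, Yars, Hars and Aars2, among others. The same holds for Eprs and Iars, whose Low points spread widely, while Lars2 has no order.

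Within the multisynthetase complex 3 of 8 genes were called (median log2 fold change 0.22), and outside it 3 of 12 (median 0.15). By class, 3 of 9 class I genes were called (median 0.28) and 2 of 10 class II genes (median 0.12), with Eprs, which has both, standing apart from this count. All of these calls were in the higher direction, where 13.8% of all genes were called (28.4% in either). The differences between the groups were not tested. Median transcript length was 3065 bases for the cytoplasmic and 3490 for the mitochondrial genes, against 3287 over all genes.

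Eprs encodes the enzyme that charges the tRNAs of glutamate and proline and is the largest chain of the complex (chr1:185363044-185428360, plus strand, GRCm38). Its signal was 413, 264 and 310 in the Low libraries 1 to 3, 533, 427 and 474 in Medium and 504, 468 and 440 in High. All Medium and High libraries lay above all Low ones, and Low replicate 2 was the lowest of the 9. High exceeded Low 1.43-fold (log2 fold change 0.54, SE 0.15, limma adjusted p = 0.0266). Eprs was no longer called in fits lacking Low replicate 2 or 3 (adjusted p = 0.0692 and 0.0909) or High replicate 1, 2 or 3 (0.0895, 0.0735 and 0.0521) and after rescaling to the same total (0.0503), within a range of 3.55e-06 to 0.0909 over all alternatives.

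Lars encodes the leucine enzyme, which is also known as a leucine sensor upstream of mTORC1. It had 253, 211 and 236 in Low, 336.5, 277 and 293 in Medium and 305, 295 and 286.5 in High. The groups High and Low did not overlap, and Medium covered the range of High. The difference was 1.27-fold (log2 fold change 0.34, SE 0.097, limma adjusted p = 0.0259). It was no longer called without Low replicate 2 or 3 (adjusted p = 0.0708 and 0.0723), without High replicate 1, 2 or 3 (0.0857, 0.0755 and 0.06), with rescaling (0.0525), with quantile normalization (0.106) and with Low replicate 3 as the one Low library (0.0742). The full range was 5.12e-05 to 0.106.

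Mars encodes the methionine enzyme, which charges both the initiator and the elongator tRNA (chr10:127296221-127311786, minus strand). The Low libraries had 188, 174.5 and 198, the Medium libraries 238.5, 225 and 227, and the High libraries 238, 237 and 240.3. The 3 High values lay within a few units of each other and above every Low value. High was 1.27-fold above Low (log2 fold change 0.35, SE 0.073, limma adjusted p = 0.0065). The call was kept in all 9 fits that each left out 1 library (adjusted p = 0.00428 to 0.0306), and was lost with Low replicate 3 as the one Low library (0.0517), within a range of 2.27e-05 to 0.0517.

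Iars, the isoleucine enzyme, had the second largest cytoplasmic difference but was not called. Its signal was 279.7, 198 and 246 in Low, 335, 285 and 329.5 in Medium and 339, 299 and 284 in High. High and Low did not overlap, although Low replicate 1 came within a few units of High replicate 3. The log2 fold change was 0.36 (SE 0.13, 95% interval 0.07 to 0.65, limma adjusted p = 0.0673). With the replicate numbers as pairs it was called (adjusted p = 0.0115), as it was without Low replicate 1 (log2 fold change 0.47, adjusted p = 0.00889). Vars, the valine enzyme, lay closest outside the threshold with a log2 fold change of 0.31 and an adjusted p of 0.0572, or 0.0238 with pairs.

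Dars, the aspartate enzyme of the complex, differed least of the cytoplasmic set. It had 201, 212 and 208 in Low, 232.5, 200.4 and 199.9 in Medium and 210.2, 214.5 and 204 in High. The groups overlapped (log2 fold change 0.02, SE 0.079, 95% interval -0.16 to 0.20, adjusted p = 0.894). Sars, the serine enzyme, came next, with 307.5, 325 and 327 in Low, 322.5, 339 and 321 in Medium and 324.5, 337 and 333 in High. Here too the groups overlapped (log2 fold change 0.05, SE 0.068, 95% interval -0.10 to 0.21, adjusted p = 0.595). Over the 14 cytoplasmic genes not called, the 95% intervals reached from -0.16 to 0.65.

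Aars charges alanine tRNA and acts outside the complex (chr8:111033144-111057664, plus strand, with the promoter matches shown above). Its signal was 375, 303 and 347 in Low, 432, 426 and 432 in Medium and 420.1, 429.5 and 430.0 in High. Medium and High were close together and above all Low libraries. The difference between High and Low was 1.25-fold (log2 fold change 0.33, SE 0.086, limma adjusted p = 0.0201). Aars was no longer called in fits lacking Low replicate 3 (adjusted p = 0.0595) or High replicate 1, 2 or 3 (0.0534, 0.0685 and 0.0677), with rescaling (0.0543) and with quantile normalization (0.0654), within a range of 1.3e-05 to 0.0685. The gene shares 22.2% of its windows of 61 bases, the read length, with Exosc6, a gene on the same strand that is not among the names of the table, so part of its count could be assigned either way.

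Yars, the tyrosine enzyme (chr4:129189760-129219607, plus strand), had the smallest standard error of the called genes. Its signal was 137.5, 135 and 144 in Low, 161.5, 161 and 159 in Medium and 169, 168 and 169 in High. The 3 groups did not overlap and stood in the order of Myc. High was 1.21-fold above Low (log2 fold change 0.28, SE 0.064, limma adjusted p = 0.011). It was called in all 9 fits without 1 library (adjusted p = 0.00883 to 0.045), and lost with quantile normalization (0.07) and with Low replicate 3 as the one Low library (0.0766), within a range of 5.93e-05 to 0.0766.

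Hars, the histidine enzyme on chromosome 18, had 107, 114 and 113 in Low, 123, 129.9 and 122 in Medium and 129, 131 and 128 in High. Low lay below both other groups, by 1.16-fold against High (log2 fold change 0.22, SE 0.068, limma adjusted p = 0.0383). Hars was no longer called in fits lacking Low replicate 3 (adjusted p = 0.1), Medium replicate 2 or 3 (0.0526 and 0.0626) or High replicate 1, 2 or 3 (0.0998, 0.118 and 0.0988), with rescaling (0.0575), with quantile normalization (0.263), without the variance trend (0.0679) and with Low replicate 3 as the one Low library (0.13). The range over all alternatives was 0.000196 to 0.263. Hars and Hars2 overlap head to head on opposite strands, and 135 windows of each are shared, which is 7% of those of Hars and 4.12% of those of Hars2.

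**Figure D4:**
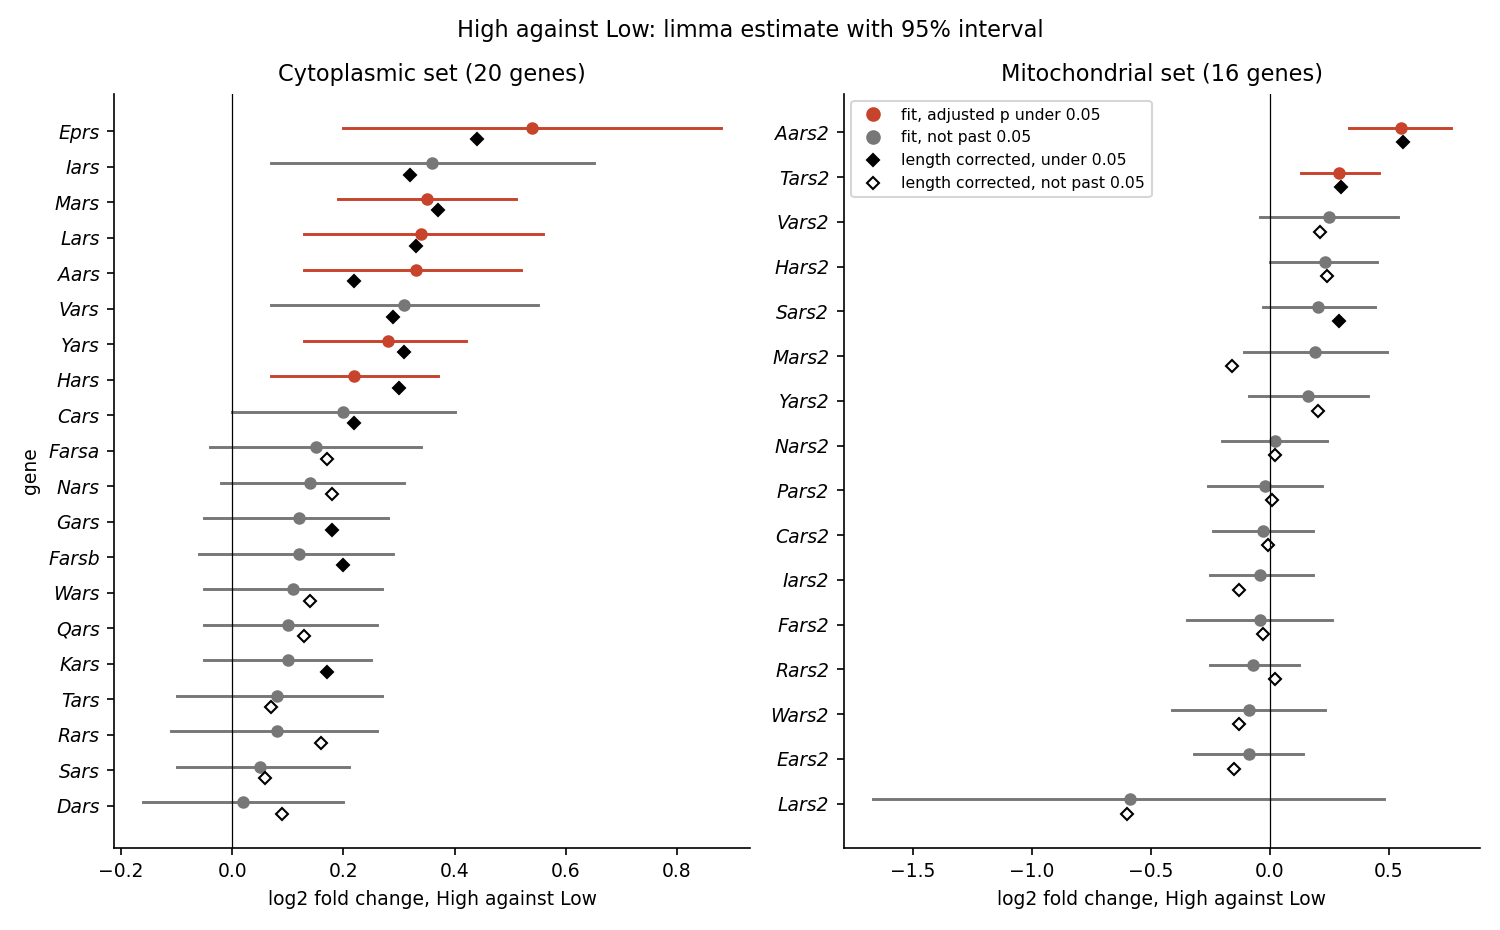
Log2 fold change of High against Low (x axis) for each synthetase (y axis), with limma's 95% intervals as lines, called genes in red, and the estimates after a correction for transcript length as diamonds, filled where called. All 20 cytoplasmic estimates lie right of 0, from 0.02 to 0.54, and the mitochondrial ones run from -0.59 to 0.55.

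In the mitochondrial set Aars2 and Tars2 rose. Aars2, the mitochondrial alanine enzyme (chr17:45506841-45520843, plus strand), had 44.5, 33.9 and 39.3 in Low, 53.8, 52.3 and 53.2 in Medium and 56.8, 58.5 and 56.9 in High. The 3 groups did not overlap and followed the order of Myc. High was 1.46-fold above Low (log2 fold change 0.55, SE 0.097, 95% interval 0.33 to 0.76, limma adjusted p = 0.0029). It was called under every alternative run (adjusted p = 3.99e-07 to 0.016) and had the largest estimate of all 36 genes.

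Tars2, the mitochondrial threonine enzyme (chr3:95739976-95760206, minus strand), had 72.4, 72.8 and 75.2 in Low, 77.8, 87.9 and 79.7 in Medium and 88.3, 91.3 and 91.0 in High. The groups again stood apart in the order of Myc, with the Low values close together. High was 1.23-fold above Low (log2 fold change 0.29, SE 0.073, limma adjusted p = 0.0156). The call was lost without High replicate 2 or 3 (0.0602 and 0.0581), with quantile normalization (0.0745) and with Low replicate 3 as the one Low library (0.0899), within a range of 4.75e-05 to 0.0899. The cytoplasmic threonine gene Tars had a log2 fold change of 0.08.

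Lars2, the mitochondrial leucine enzyme, stood apart by its spread. It had 129.9, 289 and 201.5 in Low, 579.5, 157 and 146 in Medium and 106, 159 and 130.3 in High. Medium replicate 1 was higher than every other library, and no group was separated from another. Its coefficient of variation over the 9 libraries was 70.4%, against 20.6% for Eprs, the next most variable member. High against Low gave a log2 fold change of -0.59 with a wide interval (SE 0.48, 95% interval -1.67 to 0.48, adjusted p = 0.391). Without Low replicate 2 the estimate was -0.31, and without Low replicate 1 it was -0.89. The gene shared 0 of its windows of 61 bases exactly with another annotated transcript, and inexact matches were not searched.

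Wars2, the mitochondrial tryptophan enzyme, was the member with the fewest reads. It had 6.83, 7.07 and 7.32 in Low, 6.73, 6.29 and 8.23 in Medium and 6.54, 5.42 and 7.88 in High, from 61 to 129 reads per library. The groups overlapped (log2 fold change -0.09, SE 0.14, 95% interval -0.41 to 0.23, adjusted p = 0.673). The 13 mitochondrial genes other than Lars2 that were not called had estimates from -0.09 to 0.25, and their 95% intervals reached from -0.41 to 0.54. Iars2 shares 36.5% of its windows with Rab3gap2 on the opposite strand, and the strand setting of the count is not given.

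Across the 13 pairs of 1 amino acid, the cytoplasmic log2 fold change was above the mitochondrial one in 9. Leucine (0.34 against -0.59), isoleucine (0.36 against -0.04) and cysteine (0.20 against -0.03) had the widest gaps of this kind. Alanine (0.33 against 0.55), threonine (0.08 against 0.29), serine (0.05 against 0.20) and histidine (0.22 against 0.23) had the larger value in the mitochondrial gene. These differences within pairs were not tested.

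Low replicate 2 was the lowest of all 9 libraries in 14 of the 36 synthetases (median transcript 4036 bases), which include Aars, Eprs, Iars, Lars, Mars, Yars and Aars2, and Low replicate 1 in 13 (median 2878 bases). When each library's deviation was corrected for transcript length, 15 synthetases were called higher in High than in Low, 12 cytoplasmic and 3 mitochondrial. Of all 13499 genes 38.2% were called in either direction, 2638 higher and 2525 lower. The 7 added were Iars (log2 fold change 0.32, adjusted p = 0.0165), Vars (0.29, 0.0123), Farsb (0.20, 0.0204), Kars (0.17, 0.0336), Cars (0.22, 0.0428), Gars (0.18, 0.0434) and Sars2 (0.29, 0.00995). The estimates of Eprs and Aars shrank to 0.44 and 0.22, and that of Hars grew to 0.30. With the replicate numbers as pairs 10 synthetases were called, all higher, Iars and Vars being added. Of all genes 38.8% were then called in either direction, 2728 higher and 2511 lower.

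The Medium population separates the range into 2 steps, which share the Medium libraries, as all 3 comparisons share libraries. From Low to Medium, 5 synthetases were called, all higher, Aars, Eprs, Lars, Mars and Aars2. Over all genes 12.0% were called, 6.14% higher and 5.87% lower, and the 5 make up 13.9% of the 36. The log2 fold changes were 0.34 for Aars (adjusted p = 0.0353), 0.56 for Eprs (0.044), 0.37 for Lars (0.037), 0.30 for Mars (0.0291) and 0.44 for Aars2 (0.0213). Yars (0.21, adjusted p = 0.0651) and Iars (0.40, 0.0738) lay just outside. In 12 of the 36 genes all Medium libraries were above all Low libraries and in 0 below, against 14.5% and 15.1% of all genes.

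These 5 calls did not hold in every fit without 1 library. Such fits lost Aars and Eprs in 8 of 9 (limma adjusted p up to 0.115 and 0.148), Lars and Mars in 7 (up to 0.116 and 0.091) and Aars2 in 4 (up to 0.0792). Leaving out High replicate 2, which is not part of this comparison, also lost Aars, Eprs, Lars and Mars. Their estimates stayed at 0.34, 0.56, 0.37 and 0.30. The fit without Low replicate 1 kept all 5, with 9 synthetases called, while those without Low replicate 3 or without Medium replicate 1 or 3 called 0. Over all 13499 genes the fit without Low replicate 1 called 2737 higher and 2386 lower, against 829 and 792 with all libraries. Without Low replicate 3 these were 291 and 236. Without Medium replicate 1 they were 362 and 354, and without Medium replicate 3 they were 287 and 286.

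From Medium to High, limma called 0 of the 36 synthetases, and 0 had an unadjusted p under 0.05. EdgeR on the recovered reads called 0 with 1 at an unadjusted p under 0.05, and DESeq2 had 0 and 0. Of all genes 0.407% were called, 0.0815% higher and 0.326% lower. The cytoplasmic estimates ran from -0.05 for Nars and Tars to 0.15 for Farsa with 95% intervals between -0.36 and 0.34, and the mitochondrial ones without Lars2 from -0.09 to 0.19 with intervals between -0.41 and 0.43. The smallest adjusted p was 0.556 for Tars2, with a log2 fold change of 0.14. In 6 genes (Cars, Vars, Yars, Aars2, Hars2 and Tars2) all High libraries lay above all Medium ones and in 0 below, against 9.34% and 10.8% of all genes. Of the 8 genes called between High and Low, the Medium to High estimate was -0.01 for Aars, -0.02 for Eprs, -0.03 for Lars, 0.05 for Hars and Mars, 0.07 for Yars, 0.11 for Aars2 and 0.14 for Tars2. Myc rose over this step (log2 fold change 0.66, adjusted p = 0.0107). The difference between the steps was not tested.

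**Figure D5:**
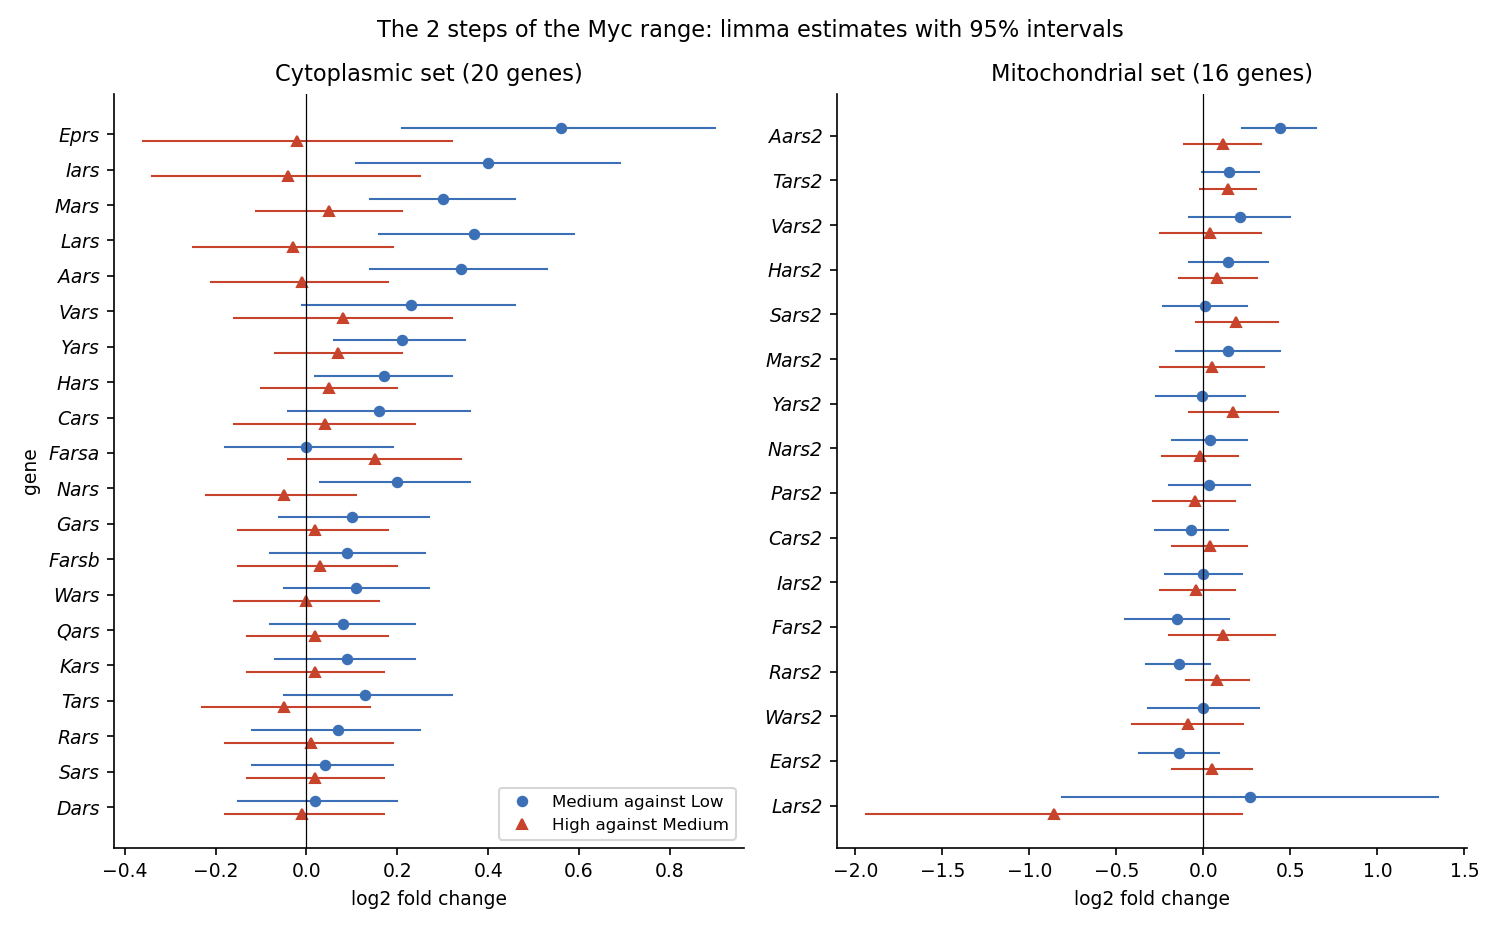
Log2 fold change (x axis) of each synthetase (y axis) from Low to Medium (blue circles) and from Medium to High (red triangles) with limma's 95% intervals, on different x ranges for the 2 sets. The cytoplasmic Medium to High estimates lie between -0.05 and 0.15, and those of Low to Medium between 0.00 and 0.56.

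The partners of tRNA charging, which are the scaffolds of the complex and the factors for misacylated or specialised tRNAs, held no gene called higher. Of 15 measured, 0 were higher and 2 lower in High than in Low, against 13.8% higher and 14.6% lower of all genes, and the median log2 fold change was -0.01. Dtd1, a deacylase that removes D-amino acids from tRNA, had 34.7, 50.5 and 50.7 in Low, 37.2, 36.3 and 34.9 in Medium and 30.4, 33.0 and 30.01 in High (log2 fold change -0.51, SE 0.14, adjusted p = 0.0219). Every High library lay below every Low one. Pstk, the kinase of the selenocysteine pathway, had 23.1, 30.9 and 25.9 in Low, 20.2, 22.6 and 21.4 in Medium and 17.2, 20.98 and 21.6 in High, likewise without overlap of High and Low (-0.40, SE 0.13, adjusted p = 0.0436). The scaffold genes were not called, with log2 fold changes of -0.07 for Aimp1 (adjusted p = 0.71), -0.13 for Aimp2 (0.555) and 0.02 for Eef1e1 (0.903).

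Among genes of the amino acid response and ATF4 targets, calls were made in both directions. Of 30 measured, 4 were higher (Slc7a1, Cth, Shmt2 and Sesn2) and 7 lower (Cebpb, Ddit3, Chac1, Atf5, Psat1, Asns and Trib3) in High than in Low, with a median of -0.05, against 13.8% higher and 14.6% lower of all genes. The share of higher genes was thus near that of all genes. Slc7a1, a transporter of cationic amino acids, had 64.5, 40.3 and 52.8 in Low, 96.0, 78.2 and 97.0 in Medium and 99.96, 91.8 and 92.9 in High (log2 fold change 0.87, SE 0.15, adjusted p = 0.00294). Cth, which makes cysteine from cystathionine, had 57.7, 76.7 and 72.2 in Low, 94.5, 95.1 and 96.3 in Medium and 99.4, 108 and 113 in High (0.63, SE 0.11, adjusted p = 0.00219). In both genes Low lay below the other groups.

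The lower genes of this list include stress factors. Cebpb, a transcription factor of the C/EBP family, had 11.5, 18.5 and 14.6 in Low, 6.55, 7.10 and 5.43 in Medium and 3.83, 4.09 and 4.505 in High (log2 fold change -1.60, SE 0.17, adjusted p = 0.000155). Ddit3, or CHOP, had 5.28, 7.60 and 8.75 in Low, 5.28, 3.96 and 4.98 in Medium and 4.093, 4.001 and 4.023 in High (-0.67, SE 0.17, adjusted p = 0.0167). Asns, the asparagine synthetase, which makes the amino acid and is no tRNA enzyme, had 148, 189 and 183 in Low, 154, 150.2 and 148 in Medium and 130.2, 137.5 and 129.8 in High (-0.38, SE 0.096, adjusted p = 0.0167). In all 3 genes every High library was below every Low one. Atf4 mRNA was not called (0.11, SE 0.14, adjusted p = 0.588), and its control is known to act largely on translation, which these libraries do not measure.

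Among tRNA processing, modification and export genes, 6 of 40 table entries were higher (Adat3, Rpp25, Adat1, Pop1, Elac2 and Nsun2) and 2 lower (Tsen34 and Tsen15), with a median log2 fold change of 0.04. The share of higher genes was near the 13.8% of all genes, and 14.6% of all genes were lower. Adat3, a subunit of the adenosine deaminase of the wobble base, had 16.9, 14.8 and 14.5 in Low, 16.4, 18.4 and 19.4 in Medium and 21.8, 20.98 and 23.3 in High (0.49, SE 0.10, adjusted p = 0.00651). Rpp25, a subunit of ribonuclease P, had 85.1, 121 and 103 in Low, 112, 138 and 118 in Medium and 123.5, 157 and 152 in High (0.49, SE 0.14, adjusted p = 0.0289). Adat3, Rpp25 and Adat1 all had High above Low without overlap. Adat1, the deaminase of alanine tRNA, had 35.2, 22.1 and 25.7 in Low, 36.7, 30.4 and 32.0 in Medium and 42.0, 36.3 and 36.3 in High (0.47, SE 0.16, adjusted p = 0.0474). Tsen34, the catalytic subunit of the tRNA splicing endonuclease, had 124.5, 172 and 157 in Low, 107.5, 118 and 99.5 in Medium and 90.7, 109 and 111 in High (-0.54, SE 0.13, adjusted p = 0.0137).

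Of 11 mitochondrial translation factors 1 was higher and 1 lower, with a median of 0.11, against 28.4% of all genes called. Tufm, the mitochondrial elongation factor Tu that carries charged tRNA to the ribosome, had 134, 163 and 148 in Low, 167, 169.9 and 166 in Medium and 197.5, 209.9 and 205 in High (log2 fold change 0.46, SE 0.083, adjusted p = 0.00295). The 3 groups stood apart in the order of Myc. Mtrf1l, a mitochondrial release factor, had 6.12, 7.07 and 6.76 in Low, 5.34, 4.22 and 4.34 in Medium and 4.75, 4.80 and 4.59 in High (-0.41, SE 0.12, adjusted p = 0.0285). From Medium to High 0 genes of any of these 4 lists were called.

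Markers of other cell types moved with the groups too. Of 8 trophoblast markers 6 were measured (Elf5 and Hand1 are not among the names of the table), and all 6 were lower in High than in Low, with sums of 455 to 551 in Low, 205 to 228 in Medium and 123 to 128 in High. The 2 measured of 6 primitive endoderm markers, Sparc and Dab2, summed to 220 to 237, 335 to 359 and 424 to 439, with Sparc higher and Dab2 lower. The 6 measured of 8 fibroblast markers summed to 24.1 to 39.8, 35.5 to 59.8 and 28.4 to 41.4, and 1 of them, Thy1, was higher in High than in Low (log2 fold change 0.69, adjusted p = 0.00384). The defining genes Gata4, Sox17, Pdgfra and Foxa2 of primitive endoderm and Lum and Pdgfrb of fibroblasts are likewise not among the names, and no measured marker was at 0 in every library. Trophoblast markers were highest in Low, where the 8 called synthetases were lowest, and their part in the synthetase differences was not tested.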

How the data were processed

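RNA of 9 libraries, 3 each of the High, Medium and Low Myc populations, was sequenced as single-end reads of 61 bases, per the labels' protocols. The authors deposited 1 table of gene signal, that is, gene counts divided by a factor for each library, close to CPM. Tools named in the submitters' processing notes, with no role or order, are Picard, cutadapt, RSEM 1.17 and limma. Not given in the sources used here are the genome build, the annotation and the strand setting. Groups and replicate numbers come from the sample titles. Genes without a name (85) held 1.71% to 2.53% of the signal and stayed in the fit as identifiers.

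The values were whole multiples of 1 read within 0.001 read for 100% of values, which gave back 11114936 to 16755566 reads per library. Members had 61 to 9558 reads per library. Log2(signal + 1 CPM of the library's own total) was fitted with limma 3.58.1 (R 4.3.3, empirical Bayes with trend) over all 9 libraries and the 13499 genes that reached 1 CPM in 3 libraries, which is every gene of the table. Fold changes on this scale understate those of low genes. P-values were adjusted by Benjamini-Hochberg over all genes, with a threshold of 0.05. EdgeR 4.0.16 and DESeq2 1.42.0 were run on the recovered counts as alternatives. On simulated data for High against Low (13311 genes) the fit recovered 20.9%, 67.2% and 95.5% of genes changed 1.5-, 2- and 4-fold, with 9 of 131 calls wrong. The simulation gave 131 calls in all, against 3832 for High against Low in the data. Adjusted p-values depend on how many genes differ, so this recovery cannot be taken as that of the data. The called synthetase differences lie below 1.5-fold.

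Same-numbered High and Low libraries deviated together (correlations 0.53, 0.26 and 0.18, across genes). High replicate 3 with Low replicate 2 (0.31) and High replicate 2 with Low replicate 3 (0.12) did so too, and the labels do not say what a number shares. Same-numbered pairs did not all reach 0.1 for High against Medium (0.35, 0.17 and -0.04) or Medium against Low (0.24, 0.43 and -0.11).

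Coordinates and transcript lengths are from GENCODE M21 (GRCm38), which matched 99.40% of identifiers, and promoters from RefSeq (GRCm38.p6). The genes given in full are all called members, the 2 highest and 2 lowest of each set, and up to 4 called genes of each related list plus Atf4, Asns, Aimp1, Aimp2 and Eef1e1; for Vars, Yars2 and others named beyond this, the choice was made after their values were seen. The members, lists and tests were chosen with earlier results of these data known.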

Additional observations from a re-analysis of the deposited data

How the results depend on the processing

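With 8 synthetases called for High against Low, 0 for High against Medium and 5 for Medium against Low, the counts changed with several settings, and the cause was not tested. In that order of High against Low and then Medium against Low, rescaling to the same total gave 4 and 2, quantile normalization 3 and 1, array weights 20 and 16 (2 lower in each), and the transcript length correction 15 and 9. The length correction with the replicate block as pairs gave 18 and 14 (0 and 1 lower), and the replicate block alone 10 and 7. Dropping the variance trend gave 7 and 2, edgeR 8 and 4, and DESeq2 10 and 8. Calls over all 13499 genes moved too. For High against Low the main fit called 1866 higher and 1966 lower, and array weights 4563 and 4566. The length correction with pairs called 3120 and 2902, and quantile normalization 1657 and 1928. For Medium against Low these fits, in the same order, called 829 and 792, 4158 and 4626, 2103 and 1728, and 744 and 796. A larger count of synthetases is thus not by itself particular to them. Of the alternatives chosen after seeing the data, array weights estimated gene by gene gave 16 and 15 (1 and 2 lower), and Low replicate 3 as the one Low library gave 3 and 3, with that lone library assumed to vary like the other groups. Fits without 1 library called 3 (without High replicate 2 or 3) to 13 (without Low replicate 1) for High against Low, and 0 (without Low replicate 3, Medium replicate 1 or Medium replicate 3) to 9 (without Low replicate 1) for Medium against Low. Without Low replicate 1, all genes gave 3066 higher and 2780 lower for High against Low, and 2737 and 2386 for Medium against Low. Gene by gene weights gave 3959 and 3891 of all genes for High against Low, and 3459 and 3585 for Medium against Low. For High against Medium, 0 synthetases were called under every alternative run. The default array weights stopped before convergence. Of the 936 values recomputed for the named genes, 825 stayed on their side of the threshold, 85 lost a call, 26 gained one and 0 turned a call around. A gene not called is not shown to be equal, since the simulation recovered 20.9% of genes changed 1.5-fold.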
